A study of Canis lupus familiaris with 21 samples.

Results

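Tumor cell-rich tissue of canine cutaneous histiocytoma (CCH) was compared between stage 2 and stage 1, using the 5 libraries titled as tumor cell-enriched tissue of group 2 (group 2a) and the 5 libraries titled as group 1, which make 10 of the 21 libraries of the series. The study staged these skin tumors of dogs by their lymphocytes and asked how tumor cells and lymphocytes differ along spontaneous regression. RNA from formalin-fixed, paraffin-embedded tumors was hybridized to the nCounter Canine IO Panel, in which color-coded probes for 800 genes are counted as single molecules. In stage 1 lymphocytes are absent under the microscope, and in stage 2 they enter the tumor from its margin. Group 2a was made of areas that consisted nearly wholly of tumor cells under the microscope, which were punched out and set into new paraffin blocks. Such a transfer is not described for group 1, so the effect of stage and that of tissue preparation cannot be told apart.

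Each of the 10 libraries came from 1 privately owned dog with no treatment or allele given, and none was a pool. Group 2a held a Bavarian Mountain Hound of 0.6 years, an English Bulldog of 3 years, a Hovawart of 3 years, a Doberman of 1 year and a mixed breed of 1.5 years (3 males and 2 females). Group 1 held 2 French Bulldogs of 0.5 and 3 years, a Goldendoodle of 0.75 years, a Terrier of unstated age and a Boxer of 5 years (3 males, 1 female and 1 of unstated sex). No breed occurred in both groups, so breed and stage cannot be told apart. Lymphocyte-enriched tissue, used here only for reference, was group 3 and group 2b. Group 3 (stage 3, 5 libraries of 1 dog each) held a Rottweiler, a Beagle, a Pug, a Bullterrier and a Jack Russell Terrier aged 1.5 to 9 years (4 males and 1 female). Group 2b (stage 2, 6 libraries) held a female Akita of 0.7 years, a female Pug of 6 years and 4 pools of 3 or 4 dogs of mixed sexes and breeds.

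CCH arises from Langerhans cells, the dendritic cells of the epidermis, and usually regresses on its own once lymphocytes invade it. Dendritic cells show peptides to T cells on major histocompatibility complex (MHC) molecules, class I to CD8 T cells and class II to CD4 T cells. T cells also read the B7 ligands on the dendritic cell, some of which, such as CD80 and CD86, stimulate through CD28 while others, such as CD274, restrain.

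The tissue was first checked against cell type markers, given as normalized counts summed per library. Of 10 measured markers of Langerhans-type tumor cells, the sum was 3966 to 7351 in group 2a and 2778 to 7275 in group 1, and none of the 10 was called. FLT3, a growth factor receptor of dendritic cells, carried much of it (849.6 to 3647 in group 2a, 962 to 3117 in group 1). CD207, which encodes langerin and defines Langerhans cells, stood only at 13.6 to 24.6 in group 2a and 17.98 to 38.5 in group 1, and CD1C at 9.09 to 27.2 and 13.8 to 28.00, values as low as those of the dimmest probes of the panel. CDH1 had 95.7 to 383 counts in group 2a and 70.1 to 883 in group 1. The label therefore rested on FLT3, CCR6, ITGAX, CD83, IRF8 and CDH1. Langerin and the CD1 molecules added little, although CD1E reached 177 in group 2a replicate 1.

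The 8 T cell markers summed to 2689.8, 2554, 2869, 3197 and 6726 in group 2a replicates 1 to 5 and to 481, 2575, 9550, 6574 and 1108 in group 1 replicates 1 to 5. All 10 libraries lay below every library of the lymphocyte-enriched areas (12599 to 20370 in stage 3, group 3, and 11221 to 20184 in stage 2, group 2b). Group 1 replicates 3 and 4 nevertheless held more T cell RNA than 4 of the 5 stage 2 libraries, and replicate 3 more than all of them, which goes against a stage defined by absent lymphocytes. The count of calls and the genes and lists that moved most without these libraries are given both ways. In bulk tissue fewer cells of a type and less RNA per cell cannot be told apart.

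Other cell types overlapped between the groups. Macrophage markers summed to 2309 to 6227 in group 2a and 2031 to 5616 in group 1, fibroblast markers to 10024 to 25014 and 3754 to 36202, and B and plasma cell markers to 380 to 1208 and 290 to 1333. Keratinocyte markers reached 950 at most in group 2a, while group 1 replicates 1, 4 and 2 held 5696, 4319 and 1820.0. The 3 endothelial markers summed to 1364 to 3325 and 1008 to 1595. The 3 mast cell markers summed to 155 to 4146 in group 2a, highest in replicate 3, and to 220 to 1366 in group 1.

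**Figure D1:**
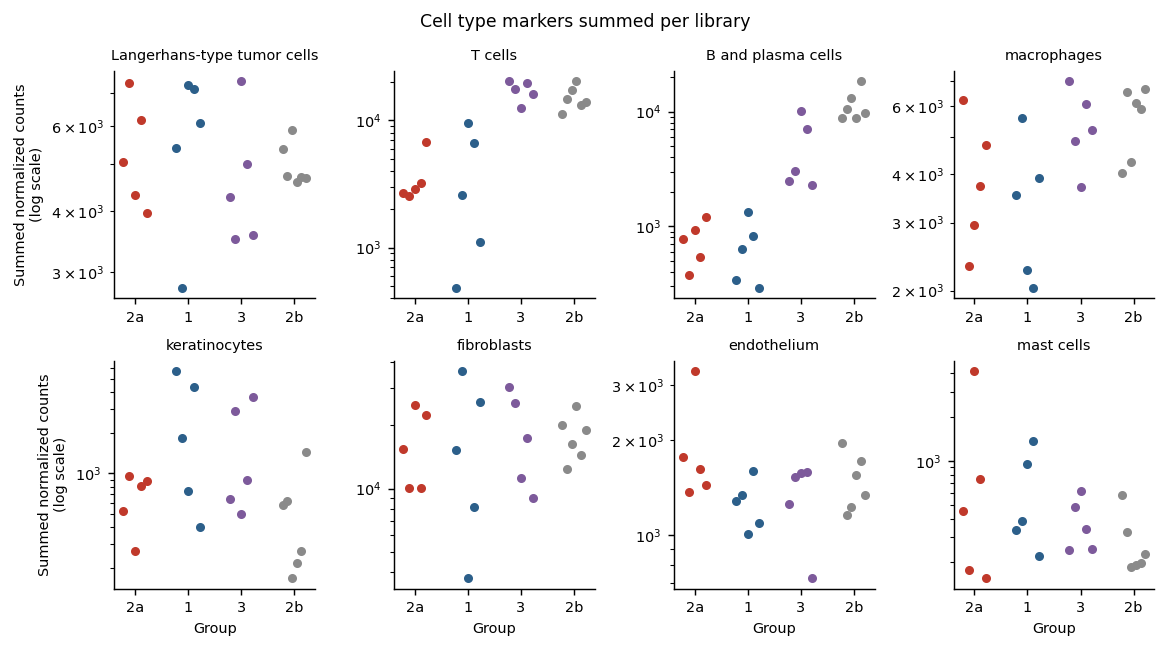
Summed normalized counts of the markers of 8 cell types (y axis, log scale) for each library, by group (x axis), with groups 2a and 1 at the left and the lymphocyte-enriched groups 3 and 2b at the right of each panel. T cell sums of group 1 spread from 481 to 9550 and enclose all 5 group 2a libraries, while groups 3 and 2b lie at 11221 or higher.

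Library measures differed between the groups as well. DV200, the percentage of RNA fragments over 200 nucleotides, was 70.5 to 76.6% in group 2a and 64.5 to 71.2% in group 1 (difference 5.28 points, two-sided exact permutation test of the means, p = 0.0159). The factor by which the authors had scaled the counts was 0.909 to 1.29 in group 2a and 1.06 to 1.89 in group 1 (exact permutation p = 0.0317), and the recovered counts summed to 756981 to 1128309 and 484696 to 823763 (exact permutation p = 0.0238). After adjustment over 8 such tests these 3 p values were 0.0845. The part of RNA quality and of the scaling factor in the results below was not tested beyond the settings given.

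Few genes separated the stages. On the deposited scale, on log2 of the value plus 1, limma called 1 of 800 probes at an adjusted p of at most 0.05 (0.125%), and after each library was shifted to an equal median it called 0, where the smallest adjusted p was 0.0861. Before adjustment, 114 probes (14.2%) had a p under 0.05, of which group 2a was the higher group for 31 (3.88%) and the lower for 83 (10.4%). The shift left 101 such probes (12.6%), split into 34 (4.25%) and 67 (8.38%), and 94 probes were in both sets. Groups without overlap were seen for 23 probes (2.88%), 5 higher (0.625%) and 18 lower (2.25%) in group 2a, and after the shift for 15 (1.88%), 4 higher (0.5%) and 11 lower (1.38%). Across the panel the log2 fold change had a median of -0.09, and 324 probes were higher against 476 lower. Quantile, TMM and DESeq2 scaling or another set of reference genes moved that median to between -0.14 and 0.04.

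The size of difference that remained possible was limited by n = 5. The 95% confidence interval of the log2 fold change had a median half-width of 0.61 and lay within 1 on either side of 0 for 421 probes (52.6%), so a change of 2-fold was outside the interval for only these. Without group 1 replicates 3 and 4 limma called 20 probes (17 higher and 3 lower in group 2a) and 28 after the median shift (20 higher and 8 lower). Genes of T cells among these calls (such as CD3E, CD3G, CD2, CD5, ICOS, TRAC and TRBC) were higher by the choice of the libraries left out and are not read as a result, and GZMK, ITGAL and PTPRC, which T cells also express, moved with them.

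OAZ1, the antizyme that restrains polyamine synthesis, was the called gene. It was counted at 3173, 3202, 2174, 2179 and 2773 in group 2a and at 3987, 4573, 4962, 5041 and 5281 in group 1. Every group 2a library lay below every group 1 library, and the gene fell by 0.83 on the log2 scale (SE 0.16, adjusted p = 0.0421). After the median shift the difference was -0.81 with an adjusted p of 0.0861, and without group 1 replicates 3 and 4 it was -0.78 with 0.0457. Leaving out single libraries gave adjusted p values of 0.0251 to 0.124, and the gene was no longer called when any of group 1 replicates 2 to 5, or group 2a replicate 4 or 5, was removed. In a fit of the 10 tumor cell-rich libraries alone the called gene was CD1B (adjusted p = 0.0166) and not OAZ1 (0.113), as with sex as a covariate in 9 libraries (0.0391 for CD1B, 0.146 for OAZ1), and OAZ1 was called in 15 of 31 alternatives.

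OAZ1 is also 1 of the 20 reference genes whose geometric mean the deposited normalization holds equal, so the other 19 must balance it. DNAJC14, a chaperone, had 637 to 908 counts in group 2a and 895 to 1440.1 in group 1 (-0.67, adjusted p = 0.103). On the other side stood TFRC, the transferrin receptor that takes up iron, with 567 to 877 and 417 to 716 (0.50, adjusted p = 0.301). When the 19 reference genes other than OAZ1 set the scale, OAZ1 was lower by 0.88 (log2 fold change -0.88, adjusted p = 0.0372).

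**Figure D2:**
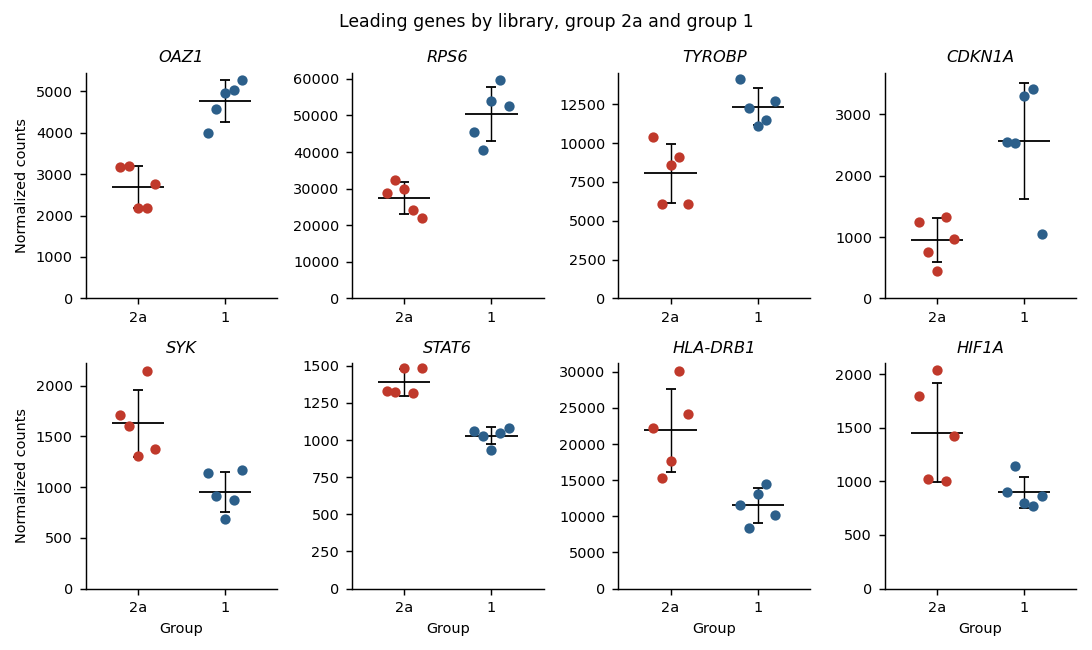
Normalized counts (y axis, starting at 0) of 8 leading genes in each library of group 2a (left) and group 1 (right), with the mean as a line and 1 SD as error bars, n = 5 each. The top row holds genes lower in group 2a and the bottom row genes higher there. On this deposited scale OAZ1, RPS6, TYROBP, SYK, STAT6 and HLA-DRB1 show no overlap, while CDKN1A and HIF1A overlap.

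A further 6 genes shared the next adjusted p, 0.0551, and were not called: SYK, STAT6 and HLA-DRB1 higher and RPS6, TYROBP and CD1B lower in group 2a. RPS6, a protein of the small ribosomal subunit, had 28775, 32343, 29927, 24037 and 21857 counts in group 2a, against 45559, 40664, 53852, 59652 and 52653 in group 1 (-0.88, SE 0.21). On the deposited scale its highest group 2a library was well below its lowest group 1 library, but the groups overlapped after the median shift. Among probes with a mean of at least 100 in both groups (525 probes, a limit chosen after the data had been seen) the 5 of these that passed the limit were called at 0.0385.

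Immune receptors without a kinase of their own signal through adaptors with ITAM motifs, to which the kinase SYK binds. SYK had 1706, 1606, 1304, 2146 and 1376 counts in group 2a and 1134, 911, 690.3, 873 and 1163 in group 1 (0.77, SE 0.18). TYROBP, the ITAM adaptor DAP12 of myeloid cells, ran the other way, with 10377, 6099, 8594, 9120.2 and 6087 against 14099, 12284, 11077, 11498 and 12735 (-0.64, SE 0.15). Kinase and adaptor thus differed in opposite directions, both without overlap on the deposited scale but with overlap after the median shift. FCER1G, the adaptor of Fc receptors, differed by 0.09 (named after its value was seen).

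PTPRC, the phosphatase CD45 of leukocytes, had 5228 to 8235 counts in group 2a and 3338 to 5400 in group 1 (0.55, adjusted p = 0.173). Group 1 replicates 3 and 4 held its highest values in that group, and without them the difference was 0.76. Of 15 genes of Fc receptor, ITAM and myeloid kinase signaling, 10 were higher and 5 lower, 2 and 1 of them at an unadjusted p under 0.05, with a median of 0.09 beside -0.09 for all probes. At that level 3.88% of all probes were higher and 10.4% lower.

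STAT6, which carries interleukin 4 signals to the nucleus, showed the narrowest spread of the leading genes. It had 1328, 1322, 1488, 1318 and 1483 counts in group 2a and 1058, 1024, 934, 1048 and 1084 in group 1 (0.43, SE 0.10). The groups did not overlap on the deposited scale, but did after the median shift. STAT3, the factor of interleukin 6 and interleukin 10 signals, had 1309 to 1932 and 1061 to 1319.6 (0.35, adjusted p = 0.216), and JAK1, a kinase upstream of both, 1599 to 1818 and 1897 to 2184 (-0.30, adjusted p = 0.285). The median of the 12 JAK and STAT genes was 0.09.

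IL4 itself, the cytokine upstream of STAT6, was near the floor of the assay. It had 12.9, 14.5, 17.1, 15.8 and 13.6 counts in group 2a and 17.98, 32.2, 33.04, 23.1 and 41.7 in group 1 (-0.90, adjusted p = 0.136). Of 13 genes of the interleukin 4 and type 2 axis, 3 were higher and 10 lower, with a median of -0.19.

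MHC class II was among the most abundant products of both stages, and its members did not differ alike. HLA-DRB1, as the panel names the DR beta chain, had 22274, 15281, 17702, 30076 and 24105 counts in group 2a and 11543, 8391, 13099, 14402 and 10126 in group 1 (0.91, SE 0.22, adjusted p = 0.0551). The groups did not overlap. Group 1 replicates 3 and 4 held its highest values in that group, and the difference was 1.10 without them. CD74, the invariant chain that guards the class II groove, had 29372 to 54669 and 10460.4 to 37557 (0.80, SE 0.29, adjusted p = 0.216).

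The DR alpha chain DLA-DRA, the partner of the DR beta chain, had 42299 to 71815 counts in group 2a and 28196 to 65467 in group 1 (0.37, adjusted p = 0.447). DLA-DQA1, the DQ alpha chain, differed by 0.06 (95% interval -0.78 to 0.90). DLA-DMA and DLA-DMB, which load peptide onto class II, differed by -0.02 and -0.19, DLA-DOB, which checks DM, by -0.73, and CIITA, the master activator of class II, by 0.13 (adjusted p 0.503 to 0.973). The median of the 9 class II genes was 0.13, with 6 higher and 3 lower, and the 2 with an unadjusted p under 0.05 were HLA-DRB1 and CD74. Of all probes, 3.88% were higher at that level.

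DLA-DQB1, the DQ beta chain, had the largest positive log2 fold change of the panel (2.50, adjusted p = 0.519), and 1 library made it. It had 10248, 14936, 14513, 17784 and 18925 counts in group 2a and 7548, 5602, 10558, 29.6 and 9423 in group 1. Replicate 4 of group 1 lay at the median of the 181 dimmest probes of its own library (29.6), while its DLA-DQA1 stood at 9696. Without it the log2 fold change was 0.89 (adjusted p = 0.813).

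The class I side held a like case in group 2a. DLA88, the classical class I heavy chain, had 6264, 10405, 27.1, 12680.4 and 10104 counts in group 2a and 4607 to 6482 in group 1. Replicate 3 of group 2a was near the dimmest probes, and the log2 fold change of -0.90 became 0.78 without that library (adjusted p = 0.187). DLA-64 and DLA-79, further class I heavy chains, had 1292 to 2918 and 5864 to 8307 in group 2a against 999 to 1878 and 1247 to 8320.5 in group 1 (0.51 and 0.77, adjusted p 0.232 and 0.377).

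PSMB9, an inducible subunit of the immunoproteasome that cuts class I peptides, was lower, with 4591 to 6919 counts in group 2a and 6710.1 to 13121 in group 1 (-0.62, adjusted p = 0.205). The median over 11 genes of class I and antigen processing was 0.12, with 7 higher and 4 lower.

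**Figure D3:**
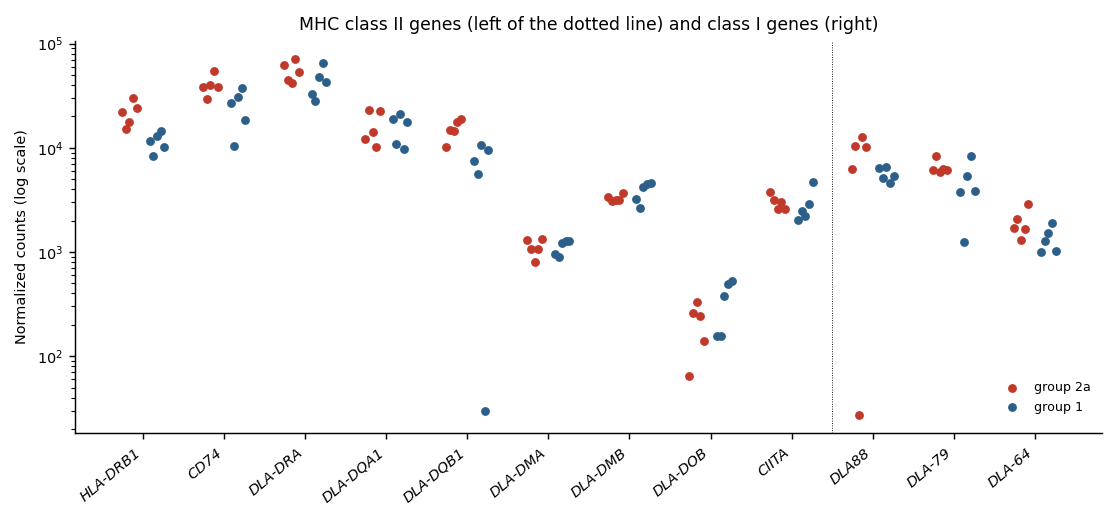
Normalized counts (y axis, log scale) of 9 MHC class II genes and 3 class I heavy chains in each library of group 2a (left of each pair) and group 1 (right). HLA-DRB1 is the only one of the 12 without overlap, and DLA-DQB1 in 1 group 1 library (29.6) and DLA88 in 1 group 2a library (27.1) lie far below the rest.

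None of the 7 B7 ligands was called. CD86, a ligand of CD28 and CTLA4, had 7423, 4038, 2677, 4627 and 4739.6 counts in group 2a and 4552, 4113, 4263, 5942 and 3962 in group 1, with full overlap (-0.02, 95% interval -0.53 to 0.49). CD80, the second ligand of the same receptors, had 413 to 905 and 297 to 781 (0.20, 95% interval -0.33 to 0.74). Both intervals exclude a 2-fold change.

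Among the ligands that restrain T cells, CD274 (PD-L1) had 123 to 241 counts in group 2a and 51.8 to 237 in group 1 (0.23), PDCD1LG2 (PD-L2) 86.03 to 410.2 and 80.4 to 399 (0.05), and VSIR (VISTA) 487 to 970.3 and 496 to 1041 (-0.28). ICOSLG, the ligand of the costimulator ICOS, had 132 to 398 and 86.3 to 189 (0.60, adjusted p = 0.35). CD276 (B7-H3) was the 1 of these 7 genes with an unadjusted p under 0.05, with 109, 103, 72.4, 58.9 and 196 against 144, 237, 127, 305 and 149.7 (-0.87, adjusted p = 0.177). Of all probes, 10.4% were lower at that level.

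None of the 5 receptors of the CD28 family was called. CTLA4, the inhibitory receptor for CD80 and CD86, had 243 to 525 counts in group 2a and 361, 390.1, 1347, 810.5 and 267 in group 1, with its highest values in the 2 group 1 libraries of high T cell sums (-0.69, adjusted p = 0.472). These receptors had a median of 0.34, which was -0.14 without group 1 replicate 1 and 1.12 without group 1 replicates 3 and 4.

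Genes of Langerhans and dendritic cell identity were lower more often than higher, 13 of 18, with a median of -0.26. CD1B, which shows lipids to T cells, was counted as 1, 1, 2, 1 and 1 recovered molecules in group 2a and 4, 12, 7, 12 and 7 in group 1. The sums of 6 and 42 gave a ratio of group 1 over group 2a of 10.1 after scaling (95% counting interval 4.28 to 29.1). That interval leaves out the spread between dogs. All these counts lay below the library medians of 17 to 23 recovered counts of the 181 dimmest probes, and 1 value in group 2a stood at the floor of 1. The size of the CD1B difference is therefore unsure. CD1B was called in 8 of 29 alternatives, with adjusted p values of 0.0038 to 0.253 and no change of sign. IRF8, a factor that dendritic cells need, had 196 to 585 counts in group 2a and 361 to 811 in group 1 (-0.70, adjusted p = 0.371).

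None of this list was called, and its median was 0.09 without group 1 replicates 3 and 4. Dendritic cell maturation was covered by 18 genes, of which 8 were higher (median -0.01, and -0.05 to 0.12 over the scalings). The lowest p among them belonged to IL15, a cytokine that sustains CD8 T cells, with 380.1 to 733 counts in group 2a and 480.3 to 1114 in group 1 (-0.63, adjusted p = 0.242), and MRC1, the mannose receptor, with 294 to 1129 and 493 to 1854 (-0.77, adjusted p = 0.337).

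Cell cycle and growth signaling gave the next group of differences. CDKN1A, the cell cycle inhibitor p21, had 1249, 749.7, 449, 1327 and 969 counts in group 2a and 2545, 2537, 3308, 3418 and 1044 in group 1 (-1.43, SE 0.38, adjusted p = 0.103). Replicate 5 of group 1 was alone within the range of group 2a, and without it the difference was -1.72 (adjusted p = 0.0622). The proliferation genes PCNA, the sliding clamp of replication, and MKI67 were 0.56 and 0.45 higher on the log2 scale (adjusted p 0.353 and 0.426), with 5 of 6 such genes higher and a median of 0.27.

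Of 25 genes of RAS, MAP kinase and PI3 kinase signaling 20 were lower, 7 of them at an unadjusted p under 0.05, and 5 higher, 1 of them so, with a median of -0.22, beside 10.4% of all probes lower and 3.88% higher at that level. AKT1, the kinase downstream of PI3 kinase, had 1566, 1650.2, 1115, 1383 and 1473 counts in group 2a and 2333, 1837, 1656, 2021 and 2192 in group 1 (-0.48, adjusted p = 0.107). Its groups did not overlap on the deposited scale, but did after the median shift. PIK3CG, a leukocyte PI3 kinase, was lower too, with 976 to 1743 and 1743 to 2655 (-0.52, adjusted p = 0.167).

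Genes of cell death split in direction. BID and BAX, which drive mitochondrial apoptosis, had 422 to 638 and 265 to 430.0 counts in group 2a and 668 to 815 and 426 to 668 in group 1 (-0.38 and -0.44, adjusted p = 0.228 for both). FAS, the death receptor, was higher at 418 to 798 against 351 to 559 (0.36, adjusted p = 0.331). ATG5 of autophagy had 787 to 1035 and 1131 to 1360.5 (-0.37, adjusted p = 0.162), without overlap on the deposited scale but with overlap after the median shift. CD99, an adhesion protein of leukocytes, had 161 to 618 and 446 to 1105 (-1.18, adjusted p = 0.132).

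No hypoxia or vessel gene was called in limma on the deposited scale with all 10 libraries, though HIF1A was called in 6 of 31 alternatives. Of 7 genes of endothelium and vessel growth 6 were higher and 1 lower in group 2a. Among them 2 were higher at an unadjusted p under 0.05, beside 3.88% of all probes. Only 2 genes of the hypoxia list were on the panel. HIF1A, the oxygen-sensing factor, had 1798, 1018, 2036, 999.9 and 1427 counts in group 2a and 902, 1145, 799, 774 and 868 in group 1 (0.65, SE 0.18, adjusted p = 0.107, 0.52 without group 2a replicate 3). VEGFA, the vessel growth factor, had 674, 474, 2849, 421 and 585 against 334, 594, 545, 214 and 551 (0.83, adjusted p = 0.42), and 0.34 without group 2a replicate 3. PECAM1 and CDH5, junction proteins of endothelium, were 0.53 and 0.69 higher (adjusted p 0.331 and 0.214), beside the endothelial marker sum of 3325 in that same library.

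Adhesion molecules and integrins were higher for 18 of 29 genes, 4 at an unadjusted p under 0.05 and none lower at that level, with a median of 0.15. Of all probes, 3.88% were higher and 10.4% lower at that level. ITGAL, the integrin LFA-1 of lymphocytes, had 194 to 671 counts in group 2a and 69.8 to 466 in group 1 (0.94, adjusted p = 0.301), and CD44, the hyaluronan receptor, 5776 to 8844 and 4841 to 6461 (0.40, adjusted p = 0.34). The matrix list had a median of 0.41 over 9 genes, which was 0.01 without group 1 replicate 3, the library poorest in fibroblast markers, and -0.07 without group 1 replicates 3 and 4.

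SPP1, the matrix protein osteopontin, had the largest log2 fold change among the 31 probes higher at an unadjusted p under 0.05. It had 3393, 313, 1764, 2154 and 7211 counts in group 2a and 244, 3079, 235, 179.6 and 326 in group 1 (2.29, SE 0.78, adjusted p = 0.2). Replicate 2 of group 1 stood apart, and without it the difference was 3.02 (adjusted p = 0.0965). Without group 2a replicate 2, the lowest of its group, it was 2.95 and was called (adjusted p = 0.0462), and the adjusted p over 31 alternatives was 0.0462 to 0.458. F13A1, the clotting factor XIII subunit A, had 39.1 to 200.4 and 72.5 to 529 (-1.57, adjusted p = 0.281), in a wound healing and coagulation list of 10 genes with 5 higher and 5 lower.

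No lymphocyte gene was called with all 10 libraries. CD3E of the T cell receptor complex had 958, 814, 919, 1003 and 2209.8 counts in group 2a and 42.3, 716, 3402, 2090.4 and 275 in group 1 (0.94, SE 0.75, adjusted p = 0.584), and 0.01 without group 1 replicate 1. The T cell list had a median of 0.29, which was -0.22 without group 1 replicate 1 and 1.20 without group 1 replicates 3 and 4, and none of its 20 genes had an unadjusted p under 0.05 with all 10 libraries. GZMK, a granzyme of CD8 T cells, had 394 to 2499.8 and 94.2 to 2412 (1.07, adjusted p = 0.449). Without group 1 replicates 3 and 4, which were left out for their T cell content, CD3E differed by 2.42 and GZMK by 2.21 (adjusted p = 0.0457 for both), and the median of the cytotoxic list was 0.66 beside 0.14 with them.

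CD244, a receptor of cytotoxic cells, was the 1 of 18 cytotoxic genes at an unadjusted p under 0.05, with 59.5 to 147 counts in group 2a and 79.6 to 405 in group 1 (-1.08, adjusted p = 0.214). Of all probes, 10.4% were lower at that level. IGHG, the IgG heavy chain, reached 10206 in group 2a replicate 3 and was otherwise 73.6 to 1609 there and 97.3 to 685 in group 1 (1.64, and 0.66 without that replicate). KLRG1, an inhibitory receptor of lymphocytes, and SIGLEC1, a receptor of macrophages, differed in opposite directions (0.86 and -0.93, adjusted p 0.281 and 0.301).

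Of 41 cytokines 35 were lower and 6 higher, 7 of the lower ones at an unadjusted p under 0.05 and none of the higher, with a median of -0.33. Of all probes, 10.4% were lower and 3.88% higher at that level. IFNA7, a type I interferon, had 64.3 to 101 counts in group 2a and 64.5 to 272 in group 1 (-0.97, adjusted p = 0.173), and IL17A 18.2 to 37.2 and 35.97 to 55.1 (-0.74, adjusted p = 0.199). Only 15 of the 41 had a mean of at least 100, and of these 11 were lower and 4 higher. Among all 544 probes of at least that mean, 280 were higher and 264 lower with a median of 0.02.

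The direction of a difference moved with abundance over the whole panel. For 46 probes with a mean under 20 counts the median log2 fold change was -0.45, for 135 probes of 20 to 50 it was -0.30, for 75 probes of 50 to 100 it was -0.20, and for 164 probes above 1000 it was 0.10. The 181 probes with a mean under 50 had medians of 19.3 to 23.3 normalized counts in the group 2a libraries and 20.1 to 32.2 in the group 1 libraries, but 17 to 23 and 17 to 19 recovered counts before scaling. Medians of low probes thus overlapped between the groups before the authors' factor, and after it they were mostly lower in group 2a. Group 2a also had the larger sums of recovered counts (mean 886887 against 623064). After the median shift the trend stayed, with medians of -0.42 under 20 counts and -0.27 at 20 to 50, and its cause was not tested. Of the 83 probes lower at an unadjusted p under 0.05, 35 had a mean under 100, so lists of dim genes such as cytokines are to be read beside this trend.

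**Figure D4:**
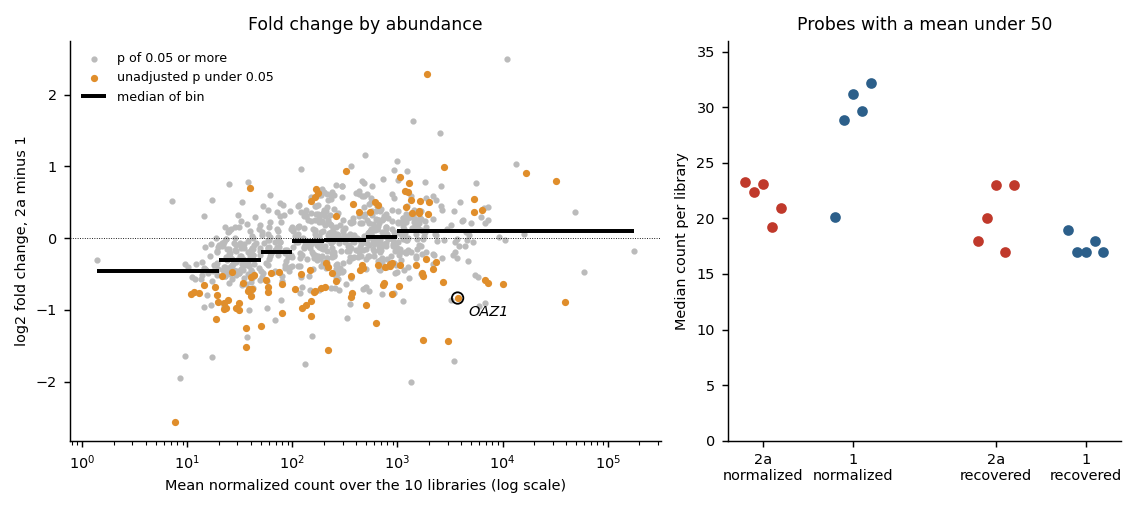
Left, log2 fold change of group 2a minus group 1 (y axis) against the mean normalized count (x axis, log scale) of each of 800 probes, with the median of 7 abundance bins as bars that climb from -0.45 to 0.10. Right, the median count per library (y axis) of the 181 probes with a mean under 50, in groups 2a and 1, as normalized counts and as recovered counts before the authors' factor.

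Granulocyte and mast cell genes were dim for the most part and followed the same direction, with 10 of 11 lower and a median of -0.59 (-1.0 without group 1 replicates 3 and 4). Only 2 of them had a mean of at least 100, and of these 1 was higher and 1 lower. KIT, a mast cell marker, had 79 to 4072 recovered counts in group 2a and 41 to 738 in group 1. HDC, which makes histamine, had 11.3 to 19.4 counts in group 2a and 20.1 to 47.5 in group 1 (-0.97, adjusted p = 0.199), and MS4A2, a chain of the IgE receptor, 20.4 to 151 and 75.8 to 159 (-1.04, adjusted p = 0.308). Chemokines were split, 11 higher and 17 lower. CXCL14, a chemokine of the epidermis, had 507 to 4055 and 1379 to 9158 (-1.44, adjusted p = 0.285), and KRT14 of basal keratinocytes 32.2 to 666 and 149.7 to 5239 (-2.01, adjusted p = 0.449), while all 5 keratinocyte genes were lower with none at an unadjusted p under 0.05.

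Interferon response genes were higher for 15 of 18, with a median of 0.22 and none at an unadjusted p under 0.05. OAS2, an antiviral enzyme, had 1294 to 3503 counts in group 2a and 880.2 to 3594 in group 1 (0.53, adjusted p = 0.472). CXCL10, the interferon-induced chemokine for T cells, had 3813 to 27938 and 9287 to 20499.8 apart from 128 in group 1 replicate 1, and its log2 fold change of 1.04 was -0.32 without that library. The median of the list was 0.02 without group 1 replicate 1 and 0.60 without group 1 replicates 3 and 4, where OAS2 was called at 1.10 (adjusted p = 0.0475). Group 1 replicates 3 and 4 held the highest OAS2 values of that group. They were left out for their T cell content after the data had been seen, so neither value is read as a result. Toll-like receptor and NF-kappaB genes (15 of 32 higher) and complement genes (11 of 26 higher) had medians of -0.04 and -0.08, whose signs turned under other scalings (up to 0.09 for both).

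**Figure D5:**
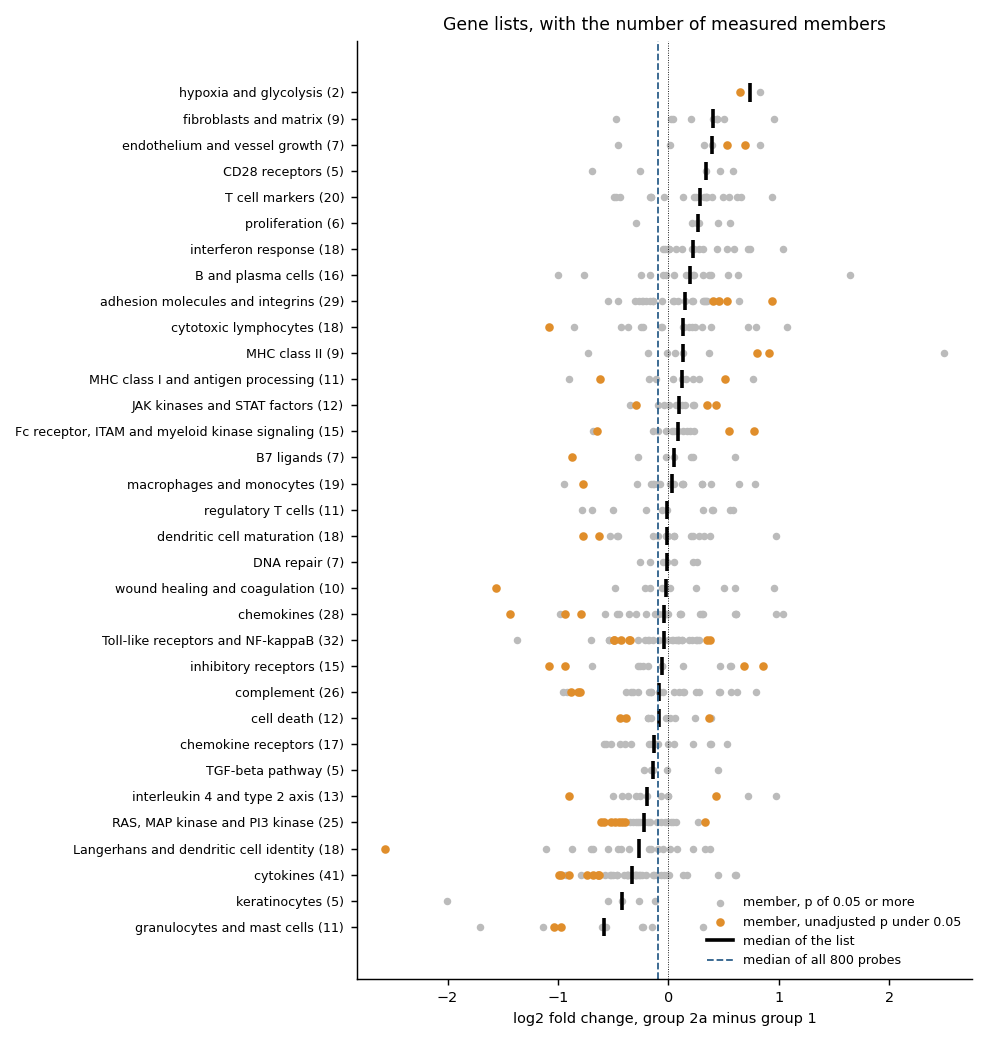
Log2 fold change of group 2a minus group 1 (x axis) of each measured member of 33 gene lists (rows, with the number of members), orange at an unadjusted p under 0.05 and gray otherwise, with the list median as a black bar and the median of all 800 probes (-0.09) as a dashed line. List medians run between -0.59 and 0.74, and most lists straddle 0.

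The libraries of group 1 spread more than those of group 2a along the first principal component of the 10 libraries (24.7% of the variance). Scores were -4.08, -4.88, 5.98, 2.39 and 6.15 in group 2a and -20.65, -3.07, 15.38, 11.98 and -9.20 in group 1, and the group means did not differ beyond the spread (exact permutation p = 0.786). The component was led by CD3E, CCL5 and CD3D at the side of group 1 replicates 3 and 4, and by IL1R2, FCER2 and S100A8 at the side of replicate 1, as in the sums of T cell markers (genes named after their loadings were seen). Replicate 3 of group 2a stood apart on the third component (15.3%) at 19.50, where all others lay between -10.64 and 5.65.

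The stage difference in tumor cell-rich tissue was set against that in lymphocyte-enriched tissue, which came from other libraries (group 3 against group 2b). The difference of the 2 contrasts was called for 1 of 800 probes (0.125%) on the deposited scale and 0 after the median shift, with 119 (14.9%) and 108 (13.5%) at an unadjusted p under 0.05. Group 3 against group 2b alone gave 50 probes at that level (6.25%). The probe called for the difference was SYK. It averaged 1628 ± 333 counts in group 2a and 954 ± 196 in group 1 (SD, n = 5 each), and 1253 ± 190.2 in group 3 (n = 5) and 1881 ± 316 in group 2b (n = 6).

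SYK was thus higher at the later stage in tumor cell-rich tissue (0.77) and lower at the later stage in lymphocyte-enriched tissue (-0.58, adjusted p = 0.154), a difference of 1.35 (SE 0.24, adjusted p = 0.0157). After the median shift the adjusted p of that difference was 0.173. Pooling of dogs can narrow the spread of group 2b, which was not tested (SD of SYK 316 there and 190.2 in group 3). Punching is described for groups 2a and 2b alone, so preparation runs opposite to stage in the 2 contrasts. Stage and preparation cannot be told apart here.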

How the data were processed

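The deposited values are signal: nCounter counts that the authors had normalized in nSolver to the positive controls and the panel's reference genes, on a linear scale with a floor of 1. The submitters' processing notes name R 3.3.2. The 20 reference genes were found from the values, as the set whose geometric mean was equal in all libraries (SD 1.4e-05 on the log2 scale, against 0.0063 for the best of 16400 neighboring sets). In each library the values were whole multiples of 1 step (0.909 to 1.895, tolerance 0.01), which gave back whole counts, less surely so for 12 libraries with few low values, a step near 1 or values raised to the floor. Intervals on counts cover counting error only. No 2 replicates of a group were alike within sampling noise (lowest chi-square per probe 55.4).

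Probes were named as deposited, and 750 matched a RefSeq symbol, 27 an identifier and 23 neither. Values were tested as log2(value + 1), with no filter, by limma 3.58.1 in R 4.3.3 (4 group means over all 21 libraries, trended variance, two-sided, Benjamini-Hochberg adjustment over 800 probes). Log2 fold changes are on this scale, which understates changes of low genes. A repeat shifted every library to an equal median. Because the 10 libraries share no dogs, no pairs were formed. Single quantities were compared by exact permutation. edgeR 4.0.16 and DESeq2 1.42.0 on recovered counts, other scalings, pseudocounts of 10 and 20, filters, covariates and libraries left out were alternatives. The limma fit on the deposited scale (main contrast and difference of stage contrasts) and an edgeR fit were tested on simulated data. The other alternatives were not.

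Genes were named if called, if among the 12 with the smallest p in each direction (mean of at least 20), the 6 so after the shift, the B7 and MHC class II genes, up to 3 with the smallest p of each other list, the 6 of widest range, or called for the difference of stage contrasts. Other genes are marked as chosen after their values were seen, apart from cell type markers and reference genes. The members and lists were chosen with earlier results of these data known. The authors' QuantSeq libraries were not analysed here. Some genes of the panel are not reported here.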

Additional observations from a re-analysis of the deposited data

Results flagged for a closer look

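For 117 named genes, 234 combinations of gene and group were examined for 1 library set apart from the other 4 by Dixon's criterion, which chance meets in about 1 in 20 groups, and 16 met it. In group 2a, replicate 3 stood apart for DLA88 (27.15 normalized counts, the next library at 6264), VEGFA (2848.59, next 673.75), APOE (7870.08, next 1530), PIK3CG (976.34, next 1478) and BAX (265.45, next 375). Replicate 5 stood apart for CD3E (2209.84, next 1003) and ICOS (998.11, next 327), and it had the highest T cell sum of group 2a. Replicate 2 stood apart for DLA-79 (8307.04, next 6248) and OAS2 (1293.82, next 2661).

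In group 1, replicate 1 stood apart for CXCL10 (128.01, next 9287), CD274 (51.84, next 181) and IL15 (480.3, next 894), and it had the lowest T cell sum of the 10 libraries. Replicate 4 stood apart for DLA-DQB1 (29.65, next 5602) and KLRB1 (268.51, next 73.9), replicate 2 for SPP1 (3078.57, next 326) and replicate 5 for CDKN1A (1044.03, next 2537). Without the library concerned, the log2 fold change of group 2a minus group 1 was 0.25 for APOE, against 0.78 with it.

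The stage difference of SYK differed between tumor cell-rich and lymphocyte-enriched tissue by 1.35 on the log2 scale in a test of that difference (adjusted p = 0.0157 in limma). SYK was higher in the punched group of each tissue, so stage and tissue preparation cannot be told apart in this result.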

How the results depend on the processing

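The count of called probes in group 2a minus group 1 (1 as deposited) was 0 after the median shift, quantile normalization, without the variance trend, in edgeR on the deposited scale and with DV200 as a covariate. It was 8 with TMM factors, 9 with DESeq2 size factors, 7 in edgeR with TMM factors, 20 (7 higher, 13 lower) in DESeq2 on the deposited scale and 19 (15 higher, 4 lower) with its own size factors. Each of these settings called SYK, HLA-DRB1, STAT6, HIF1A and CSF2RB, all higher in group 2a. These genes were called in 9, 8, 7, 6 and 5 of 31 alternatives. OAZ1 was not called in edgeR with TMM factors. Unadjusted p values under 0.05 numbered 31 higher and 83 lower as deposited, and 65 and 46 with TMM factors, so the split of directions moved with the scaling. Chosen after seeing the data, a mean of at least 100 in both groups gave 6, leaving out group 1 replicates 3 and 4 gave 20 (28 after the shift, where the main count was 0), and thinned counts with the median shift gave 0. Leaving out 1 library gave 0 to 12 (12 without group 2a replicate 2, 5 without group 1 replicate 1), 0 to 2 after the shift, and 1 to 9 for the difference of the stage contrasts (9 without group 3 replicate 3), which was 0 after the shift. The library median differed by -5.67 (-20.7 to 4.32 with 1 library left out), and the first component by 2.23 (-2.66 to 6.35).

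With the replicate number as a block the count was 0 (107 at an unadjusted p under 0.05), 0 after the shift (92) and 0 for the difference of the stage contrasts (98). Dogs differ between the groups, same-numbered libraries correlated at -0.36 to 0.15, and only group 2a replicate 3 correlated best with its own number, so no pairing was read from the numbers. The direction of OAZ1 was the same in its 31 alternatives. Of genes called only in an alternative, ICOS changed sign in 5 of 31, CD3E in 2 and IGHG, OAS2 and CXCR4 in 1 each, and the cause of these moves was not tested.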
